A study of Ovis aries with 2 samples.

Results

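Single-cell RNA-seq of Hu sheep lambskin contains a small population in which smooth muscle genes and basal keratins are read from the same cell. A cell was taken for this population when ACTG2, the gamma smooth muscle actin, had at least 20 CP10K and KRT5, a keratin of basal epithelial cells, had at least 10 CP10K. CP10K is the number of UMIs of a gene per 10000 UMIs of the cell, and a UMI marks 1 captured RNA molecule. This rule took 287 of 14037 cells, of which 44 came from the 6452 cells of the straight wool library and 243 from the 7585 cells of the curly wool library. They are called ACTG2+ KRT5+ cells below. The levels of ACTG2 and KRT5 chose the cells and are therefore given only as a description.

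The skin came from the body side of healthy Hu sheep lambs at day 3 that were kept under the same management and sorted by wool length and curvature. Skins of 3 straight wool lambs were pooled, as were skins of 3 curly wool lambs, and 1 droplet library was made from each pool with 10× Genomics chemistry. In each pool a suspension of microdissected hair follicles was mixed with a suspension of whole skin, and this mixing also sets what share a cell type takes. Lambs of a pool cannot be told apart and each wool type has 1 library, so straight and curly wool were not compared by a test, and all intervals given here cover counting error only.

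Myoepithelial cells wrap the secretory coils of sweat glands and the alveoli of the mammary gland. They carry the contractile proteins of smooth muscle, but they arise from epithelium, keep basal keratins, and sit between the secretory cells and the basement membrane. Their contraction squeezes the secretion into the duct. Other contractile cells of skin, such as vascular smooth muscle, pericytes, arrector pili muscle and dermal sheath, share the actins but are mesenchymal and lack keratins.

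**Figure D1:**
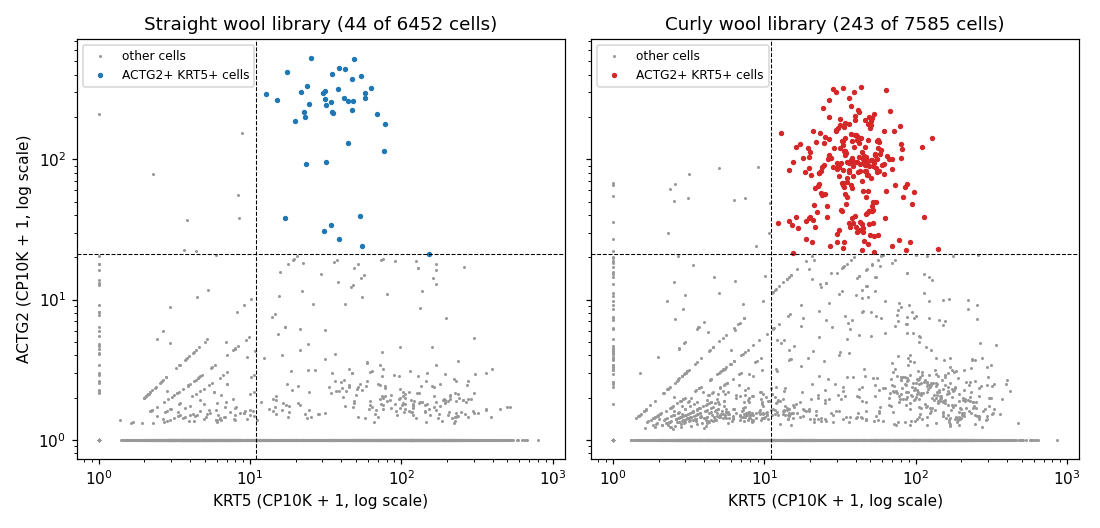
ACTG2 against KRT5 in single cells of the straight library (left) and the curly library (right), both as CP10K plus 1 on log scales, with dashed lines at the limits of 20 and 10 CP10K. The 44 straight and 243 curly ACTG2+ KRT5+ cells are coloured, and all other cells are grey.

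Cells lay close to both limits. The lowest ACTG2 level among the chosen cells was 20.04 CP10K in the straight and 20.3 CP10K in the curly library, while the highest among KRT5-positive cells left out was 19.5 and 19.96 CP10K. For KRT5 the lowest chosen cell had 11.7 and 11.4 CP10K, and the highest cell left out had 7.85 and 9.90 CP10K. Between 10 and 20 CP10K of ACTG2 there were 29 straight and 61 curly KRT5-positive cells, and 7 and 49 of the chosen cells lay between 20 and 40 CP10K. In both libraries most chosen cells thus stood well above the ACTG2 limit, as the plot of ACTG2 against KRT5 shows. At least 40 CP10K of ACTG2 was found in 37 of 44 straight and 194 of 243 curly cells. The median chosen cell held 69.5 ACTG2 and 22.5 KRT5 UMIs in the straight library and 91 and 36 UMIs in the curly library. A KRT5 level that rested on a single UMI was found in 2 straight and 5 curly cells. An ACTG2 level that rested on 1 or 2 UMIs was found in 2 straight and 11 curly cells.

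The straight library held 57956122 UMIs and the curly library 77634565. ACTG2+ KRT5+ cells had a median of 7304.5 UMIs and 1913 genes in the straight library, and of 10902 UMIs and 2702 genes in the curly library. Fewer than 2000 UMIs were found in 19 of the 44 straight and 38 of the 243 curly cells, so a larger part of the straight cells was shallow. The deepest of these cells had 23970 UMIs in the straight and 21976 in the curly library. In total, 393602 UMIs of straight and 2318724 UMIs of curly ACTG2+ KRT5+ cells stand behind the levels below, and 0 UMIs of a gene allow a level of up to 7.62 CPM (3 counts) in the straight and 1.29 CPM in the curly cells. The highest 6% of doublet scores in each library took in 1 of the 44 straight (2.27%) and 19 of the 243 curly cells (7.82%). Of 70 barcodes found in both libraries, 2 belonged to chosen cells.

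To place these cells, they were set beside other cells of the same library that were chosen by the same genes. KRT5+ ACTG2-low cells (KRT5 at least 10, ACTG2 under 5 CP10K) numbered 3612 straight and 4106 curly cells. ACTA2+ cells (ACTA2 at least 20, ACTG2 under 20, KRT5 under 10 CP10K) numbered 36 and 65. For each set and library the UMIs of a gene were summed and given as CPM, which are UMIs of the gene per 1e6 UMIs of that set. Genes with at least 100 UMIs over all ACTG2+ KRT5+ cells were compared, so genes that these cells lack are described by their levels alone.

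The contractile and the keratin genes were found in the same cells. Of 33 listed genes of the contractile apparatus, 30 besides ACTG2 reached 100 UMIs, ACTC1 and PPP1R12B had no UMI, and of the 29 left after ACTA2, which chose a comparison set, 26 were at least 2-fold above KRT5+ ACTG2-low cells in both libraries and none was as much below. Among all 2890 genes compared, 14.7% were this much higher and 2.66% this much lower. In turn, 15 of 16 measured genes of the basal keratinocyte list were at least 2-fold above ACTA2+ cells in both libraries, against 13.6% of all genes compared. These sets were themselves chosen by ACTG2, KRT5 and ACTA2, so the counts describe them and test nothing.

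**Figure D2:**
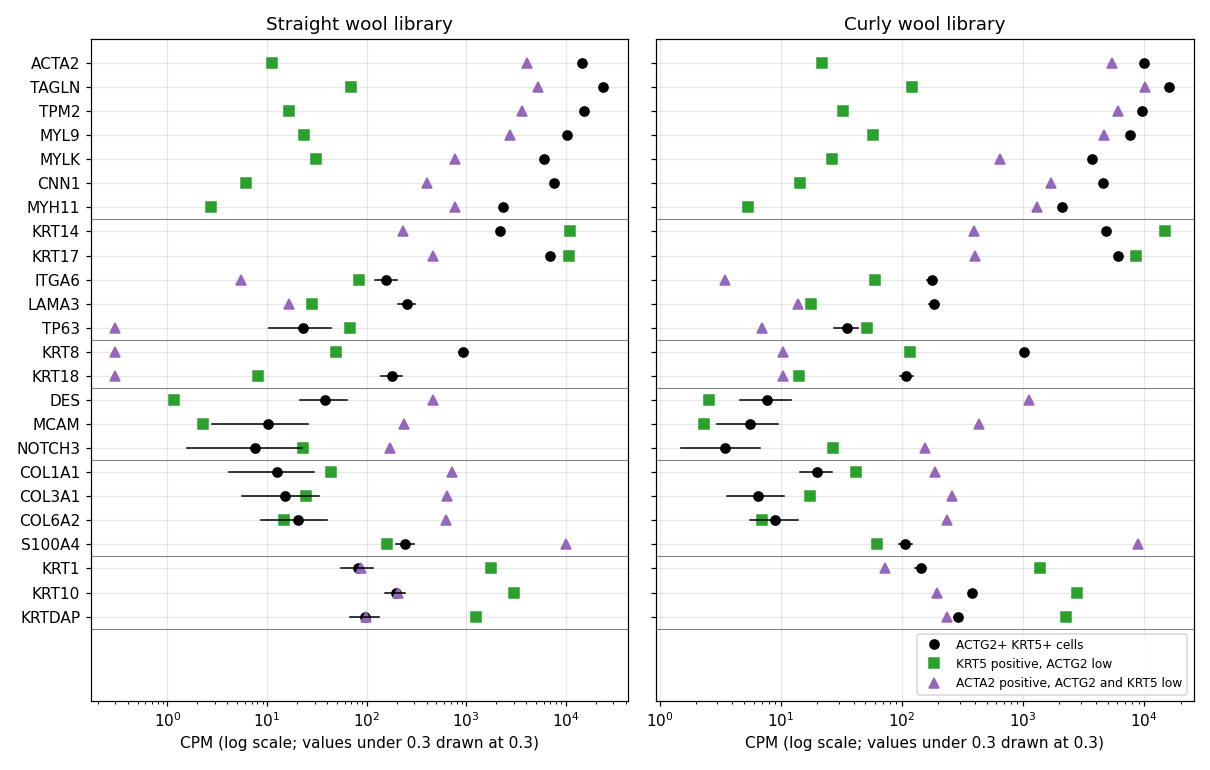
Levels (CPM, log scale) of contractile, basal keratinocyte, glandular, vascular, dermal and suprabasal genes, in blocks from top to bottom, in ACTG2+ KRT5+ cells (circles with 95% Poisson intervals), KRT5+ ACTG2-low cells (squares) and ACTA2+ cells (triangles) of each library. TAGLN stood at 23674 and 15895 CPM in ACTG2+ KRT5+ cells, beside KRT17 at 6933 and 6137 CPM, while DES was at 38.1 and 7.76 CPM.

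Among the actins, ACTG2 itself was at 27873 CPM in the straight and 10984 CPM in the curly cells. ACTA2, the alpha actin of vascular smooth muscle and myofibroblasts, was at 14522 CPM (95% interval 14148 to 14904) and 9889.9 CPM (9762 to 10019), against 11.2 and 21.8 CPM in KRT5+ ACTG2-low cells. ACTA1, the actin of skeletal muscle, was at 658 CPM (580 to 743) and 112 CPM (98.9 to 127) and below 1 CPM in KRT5+ ACTG2-low cells of both libraries. ACTC1, the cardiac actin, had no UMI. The 3 smooth and skeletal muscle actins were thus present together in these cells, with the skeletal form the most uneven between libraries.

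The myosin and its regulators were present as a set. MYH11, the smooth muscle myosin heavy chain, was at 2329.8 CPM in the straight and 2092 CPM in the curly cells, against 2.72 and 5.40 CPM in KRT5+ ACTG2-low cells. MYL9, the regulatory light chain, was at 10193 and 7704 CPM, against 23.4 and 57.5 CPM. MYLK, the kinase that phosphorylates this light chain, was at 5998 and 3735 CPM, and it was one of the contractile genes that also stood clearly above ACTA2+ cells (7.71-fold and 5.75-fold). CNN1, calponin, which binds actin and myosin in smooth muscle, was at 7523 and 4581 CPM, which is 18.8-fold and 2.67-fold above ACTA2+ cells. PPP1R14A, an inhibitor of myosin phosphatase, was at 1286 and 1101 CPM, and PPP1R12A, the targeting subunit of that phosphatase, at 635 and 945 CPM. On the thin filament, the tropomyosin TPM2 was at 15104 and 9688 CPM, and caldesmon, CALD1, at 9659.5 and 6870.2 CPM. TAGLN (transgelin) was 343-fold and 132-fold above KRT5+ ACTG2-low cells. TPM4, a non-muscle tropomyosin, went the other way, at 152 and 116 CPM against 297 and 278 CPM in KRT5+ ACTG2-low cells.

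Against ACTA2+ cells, 5 of the 29 contractile genes were at least 2-fold higher in both libraries and none was at least 2-fold lower, beside 13.6% and 3.18% of all 2890 genes. Summed over the list without ACTG2 and ACTA2, contractile genes made up 11.3% of the UMIs of straight and 7.66% of the UMIs of curly ACTG2+ KRT5+ cells. KRT5+ ACTG2-low cells gave 0.403% and 0.452%, PECAM1+ endothelial cells 0.346% and 0.369%, and ACTA2+ cells 3.47% and 5.23%. The few cells with ACTG2 of at least 20 but KRT5 under 10 CP10K gave 6.22% and 10.4%. Against all other cells of its library, 27 of 30 contractile genes were at least 2-fold higher and none at least 2-fold lower, where 16.0% and 2.94% of all 2891 genes were. Among these sets the contractile share was highest in ACTG2+ KRT5+ cells in the straight library, and in ACTG2+ cells low in KRT5 in the curly library.

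Keratins of the basal layer were present below the level of keratinocytes and far above that of other contractile cells. KRT5 was at 3915 and 4025 CPM. KRT14, its partner keratin, was at 2169.7 CPM (2027 to 2320.2) in the straight and 4809 CPM (4719.8 to 4899) in the curly cells, against 10926 and 14956 CPM in KRT5+ ACTG2-low cells and 230 and 396 CPM in ACTA2+ cells. KRT17, a keratin of outer root sheath and glands, was at 6933 and 6137 CPM, close to the 10769 and 8516 CPM of KRT5+ ACTG2-low cells and about 15-fold above ACTA2+ cells. KRT15, a keratin of basal and bulge cells, was lower, at 277 and 378 CPM against 3098 and 2334 CPM. Keratin UMIs occurred in most cells of the suspension, so levels rather than detection separate the cells. After thinning to 3000 UMIs, KRT14 had a UMI in 100% of 23 straight and 100% of 193 curly ACTG2+ KRT5+ cells, and also in 46.3% and 72.9% of PECAM1+ cells, whose level was 928 and 465 CPM. The thinning left out 21 straight and 50 curly ACTG2+ KRT5+ cells with fewer UMIs, and without it the share of PECAM1+ cells, at a median of 5298 and 4301.5 UMIs, was 78.8% and 85.0%.

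Of the 16 basal keratinocyte genes, 3 were at least 2-fold above KRT5+ ACTG2-low cells in both libraries, and 6 were at least 2-fold below, where 14.7% and 2.66% of all genes were. The share of higher genes was thus near that of all genes. They were ITGB1, the beta subunit shared by many integrins (1072 and 674 CPM against 132 and 95.5 CPM), and LAMA3 and LAMB3, chains of laminin 332, at 252 and 183 CPM and at 323 and 261 CPM. The lower ones were KRT15, KRT14 and genes of cell-to-cell junctions and stratified epithelium. Among them the desmosomal gene DSP was at 137 and 161 CPM against 513 and 563 CPM, JUP at 38.1 and 70.7 CPM against 254 and 296 CPM, and PERP at 541 and 746 CPM against 2446 and 3220.5 CPM. SFN (stratifin), a 14-3-3 protein of epithelial cells, was at 620 and 618 CPM against 2756 and 2148 CPM. The hemidesmosomal genes ITGB4 and COL17A1 lay near the level of KRT5+ ACTG2-low cells, with ITGB4 at 73.7 and 76.3 CPM against 92.7 and 61.5 CPM and COL17A1 at 203 and 136 CPM against 268 and 221 CPM. ITGA6, the partner of ITGB4, was higher than in those cells and is given with the basement membrane genes. TP63, the transcription factor of basal epithelium, had only 22.9 CPM (10.5 to 43.4) in the straight and 34.9 CPM (27.7 to 43.4) in the curly cells, against 67.5 and 51.9 CPM, and was at 0 and 6.95 CPM in ACTA2+ cells.

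Genes of the basement membrane that reached 100 UMIs were higher than in KRT5+ ACTG2-low cells. All 9 measured genes of this list were at least 2-fold above KRT5+ ACTG2-low cells in both libraries (14.7% of all genes), and 13 of the 22 genes in the table did not reach 100 UMIs. This minimum is set on ACTG2+ KRT5+ cells alone, so genes low in them could not enter the count. Type IV collagen was represented by COL4A1 at 300 and 226 CPM against 33.5 and 37.1 CPM, and COL4A2 at 277 and 226 CPM against 24.6 and 20.4 CPM. LAMC1, a laminin gamma chain, was at 193 and 127 CPM against 14.2 and 10.5 CPM. HSPG2 (perlecan), a heparan sulfate proteoglycan, was at 117 and 56.1 CPM against 13.7 and 7.71 CPM. Against ACTA2+ cells the list did not stand apart to this degree, as 2 of the 9, LAMA3 and LAMB3, which the basal list also holds, were at least 2-fold higher. ITGA6, the laminin-binding partner of ITGB4, was at 158 and 178 CPM, above both KRT5+ ACTG2-low cells (83.9 and 60.2 CPM) and ACTA2+ cells (5.48 and 3.47 CPM).

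Keratins of simple, glandular epithelium were present as well. KRT8 was at 930 CPM (837 to 1030.2) in the straight and 1028 CPM (987 to 1070.3) in the curly cells, against 48.7 and 118 CPM in KRT5+ ACTG2-low cells and 0 and 10.4 CPM in ACTA2+ cells. KRT18, its partner, was at 180 and 109 CPM against 8.19 and 14.0 CPM. At 3000 UMIs per cell KRT8 had a UMI in 91.3% of straight and 88.1% of curly cells, and in 0% of PECAM1+ cells of both libraries. Without thinning it had a UMI in 33 of 44 straight and 90.5% of curly cells, and in 0.606% and 2.14% of PECAM1+ cells. ATP1B1, a subunit of the sodium pump, was at 1092 and 822 CPM against 195 and 96.6 CPM. The other luminal genes differed. KRT19 was at 142 and 129 CPM against 71.4 and 200 CPM, AQP5, the water channel of sweat secretory cells, had no UMI, and 12 of the 17 luminal genes in the table did not reach 100 UMIs.

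Regulators of myoepithelial and smooth muscle genes were read at low levels. SOX10, a factor of glandular and neural crest lineages, was at 10.2 CPM (2.77 to 26.0) in the straight and 27.6 CPM (21.3 to 35.2) in the curly cells, against 0.284 and 0.282 CPM in KRT5+ ACTG2-low cells, and it had no UMI in ACTA2+ or PECAM1+ cells. The straight ACTA2+ cells held only 182567 UMIs, too few for 0 UMIs to set them apart from 10.2 CPM. The melanocyte genes MLANA and DCT had no UMI in ACTG2+ KRT5+ cells. SOX9, a factor of glands and follicles, was at 183 and 207 CPM, close to the 219 and 239 CPM of KRT5+ ACTG2-low cells. TFAP2B, an AP-2 family factor, was at 66.1 and 116 CPM against 29.8 and 16.9 CPM. Of the 9 measured genes of this list, 3 were at least 2-fold above KRT5+ ACTG2-low cells and 7 at least 2-fold above ACTA2+ cells in both libraries, beside 14.7% and 13.6% of all genes. SRF, the factor that drives smooth muscle genes, was at 50.8 and 38.8 CPM against 15.8 and 12.6 CPM. FHL2, a LIM domain cofactor of SRF, was at 633 and 205 CPM against 46.7 and 46.2 CPM. MYOCD (myocardin), the cardiac and smooth muscle coactivator of SRF, had no UMI in ACTG2+ KRT5+ cells. In all, 3 of 6 measured smooth muscle regulators were at least 2-fold above KRT5+ ACTG2-low cells (14.7% of all genes).

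Receptors and channels that set contraction were mostly under the 100 UMIs, which 8 of the 27 genes of this list in the table reached. OXTR, the oxytocin receptor that drives mammary myoepithelium, had 5.08 CPM in the straight and 3.02 CPM in the curly cells, from 2 and 7 UMIs. ADRA1A, an adrenergic receptor, had 10.2 and 4.31 CPM. KCNMA1, the large-conductance calcium-activated potassium channel, was below the 100 UMIs but stood at 50.8 and 30.6 CPM against 0.917 and 0.367 CPM in KRT5+ ACTG2-low cells, and its beta subunit KCNMB1 at 175 and 222 CPM against 2.09 and 2.99 CPM. EDNRA, the endothelin receptor of smooth muscle, was at 127 and 137 CPM, above KRT5+ ACTG2-low cells (35.2 and 22.0 CPM) and below ACTA2+ cells (378 and 337 CPM). RGS2, which shuts off Gq-coupled receptor signals, was the leading gene of this list, at 704 and 1903 CPM against 61.6 and 85.9 CPM in KRT5+ ACTG2-low and 10.95 and 93.8 CPM in ACTA2+ cells.

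Most defining genes of other cell types were low or had no UMI. Of the vascular smooth muscle and pericyte list, RGS5, PDGFRB, KCNJ8, ABCC9, HIGD1B and STEAP4 had no UMI. MCAM was at 10.2 and 5.61 CPM against 236 and 431 CPM in ACTA2+ cells, and DES (desmin), the muscle intermediate filament, was at 38.1 CPM (21.3 to 62.9) and 7.76 CPM (4.60 to 12.3) against 460 and 1119 CPM. ADIRF was the only 1 of the 15 genes of this list in the table that reached 100 UMIs, at 1268 and 1856 CPM against 7378 and 8223 CPM in ACTA2+ cells. Of 18 genes of dermal mesenchyme 3 reached 100 UMIs. COL1A1 was at 12.7 and 19.8 CPM against 718 and 188 CPM in ACTA2+ cells, and S100A4 at 244 and 107 CPM against 10128 and 8897 CPM. VIM (vimentin), a mesenchymal intermediate filament, was intermediate at 1212 and 2482 CPM, against 174 and 110 CPM in KRT5+ ACTG2-low and 5505 and 7202 CPM in ACTA2+ cells. No gene of the endothelial list (12 in the table), the leukocyte list (8) or the melanocyte and nerve list (7) reached 100 UMIs. The summed endothelial list took 0.000762% of UMIs in straight cells and 0.000906% in curly cells, against 0.616% and 0.653% in PECAM1+ cells. PECAM1, which chose those cells, is on this list and in the sums, so part of this contrast was set by the choice. The suprabasal genes KRT1 and KRT10 were at 81.3 and 143 CPM and at 196 and 380 CPM, against 1756 and 1373 CPM and 3011 and 2804 CPM in KRT5+ ACTG2-low cells, and all 4 measured suprabasal genes were at least 2-fold lower than there. Of the inner root sheath and hair shaft list, 5 of 9 genes in the table reached 100 UMIs, of which 1 was at least 2-fold lower than in KRT5+ ACTG2-low cells and none higher. Of 14 integrins in the table only ITGA6, ITGB1 and ITGB4 reached 100 UMIs, and of 15 Notch and adhesion genes 4 did, with 2 of them at least 2-fold above KRT5+ ACTG2-low cells. Of all genes, 14.7% were this much higher and 2.66% this much lower. Of 15 cell cycle genes only PCNA reached 100 UMIs, at 83.8 and 109 CPM. Besides ACTG2 and KRT5, which chose the cells, they held ACTA2, ACTA1, other contractile genes and other basal keratins. TP63 and SOX10 were low and OXTR was near 0. CXCL14, also a marker of the label, was above KRT5+ ACTG2-low cells in the curly but not in the straight library. Not all genes of other cell types were low, since VIM, APOD and ADIRF were at least 2-fold above KRT5+ ACTG2-low cells in both libraries. The summed dermal list took 0.171% and 0.292% of UMIs, between the 0.0960% and 0.106% of KRT5+ ACTG2-low cells and the 2.10% and 1.85% of ACTA2+ cells.

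Some cells high in ACTG2 had KRT5 under the limit. Cells with ACTG2 of at least 20 and KRT5 under 10 CP10K numbered 8 in straight and 19 in curly skin, and lie just outside the rule. Of them, 3 straight and 6 curly cells had KRT5 between 5 and 10 CP10K. KRT14, KRT15 and KRT17 took a median of 0.282% and 0.0873% of their UMIs and up to 0.928% and 1.02%, so the set is not free of keratins. They held DES at 3837 and 6944 CPM, COL1A1 at 493 and 344 CPM and VIM at 9645 and 6600.1 CPM, and KRT8 at 77.8 and 57.3 CPM. MIA, described next, was at 285 and 191 CPM there. With so few cells, these values describe single cells of the 2 pools.

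Beyond the listed genes, 76 of 2888 genes (2.63%) were at least 4-fold above both KRT5+ ACTG2-low and ACTA2+ cells in both libraries when 0.5 UMI was added to each sum. With a comparison set of 0 UMIs taken at 3 counts, the number was 58. The genes with the largest smaller ratio were secreted proteins, receptors and signalling proteins of different families.

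**Figure D3:**
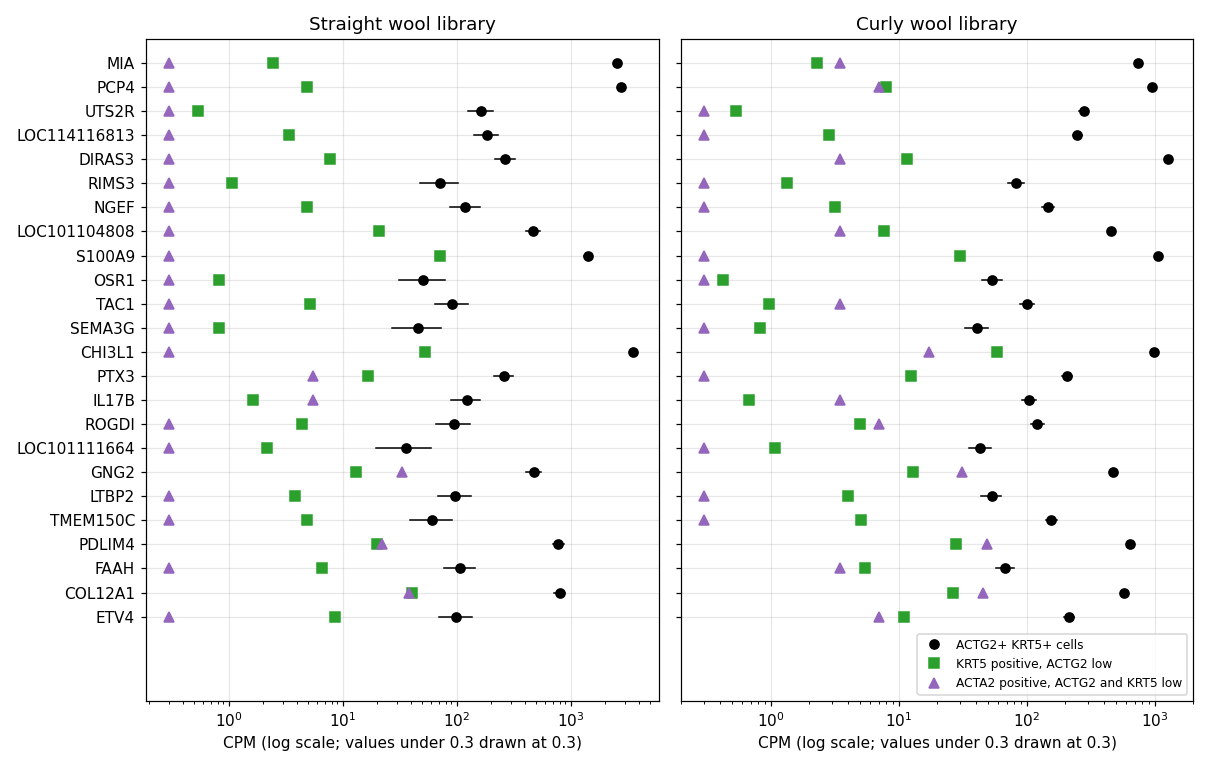
Levels (CPM, log scale; values under 0.3 drawn at 0.3) of the 24 genes other than ACTG2 that lead the comparison, in ACTG2+ KRT5+ cells (circles with 95% Poisson intervals), KRT5+ ACTG2-low cells (squares) and ACTA2+ cells (triangles). MIA, at the top, was at 2530.5 and 738 CPM in ACTG2+ KRT5+ cells and at 2.47 and 2.32 CPM in KRT5+ ACTG2-low cells.

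MIA, a small secreted protein known from melanoma and cartilage, was at 2530.5 CPM (2376 to 2693) in the straight and 738 CPM (703 to 774) in the curly ACTG2+ KRT5+ cells. It was at 2.47 and 2.32 CPM in KRT5+ ACTG2-low cells and at 0 and 3.47 CPM in ACTA2+ cells. At 3000 UMIs per cell it had a UMI in 95.7% of straight and 75.6% of curly ACTG2+ KRT5+ cells, and in 0% of PECAM1+ cells of both libraries. Without thinning these shares were 77.3% and 76.95%, and 0.606% and 0% of PECAM1+ cells. PCP4, a calmodulin-binding peptide, was at 2749 and 951 CPM against 4.90 and 7.94 CPM. Against KRT5+ ACTG2-low cells MIA was thus 1026-fold and 319-fold higher, and PCP4 561-fold and 120-fold.

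Other leading secreted proteins were CHI3L1, a chitinase-like glycoprotein, at 3501 and 979 CPM against 53.2 and 58.5 CPM in KRT5+ ACTG2-low cells, and the pentraxin PTX3 at 259 and 206 CPM against 16.6 and 12.3 CPM. S100A9, a calcium-binding protein of calprotectin, was at 1415 and 1064 CPM against 72.1 and 30.3 CPM. TAC1, the precursor of substance P, was at 91.5 and 100 CPM, IL17B, a cytokine, at 122 and 104 CPM, and SEMA3G, a semaphorin, at 45.7 and 40.5 CPM. SEMA3G was not restricted to these cells, since PECAM1+ cells had 57.9 and 94.0 CPM. Matrix genes among them were LTBP2 (96.5 and 53.0 CPM), which binds microfibrils, and the collagen COL12A1 (805 and 573 CPM against 40.9 and 26.7 CPM).

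Among receptors and signalling genes, UTS2R, the receptor of the vasoactive peptide urotensin II, was at 163 CPM (125 to 208) in the straight and 278 CPM (257 to 300.5) in the curly cells, and at 0.537 CPM in KRT5+ ACTG2-low cells of both libraries. ACTA2+ cells had no UMI of it, so its level was at least 9.90-fold and 26.7-fold higher than theirs. DIRAS3, a Ras-family GTPase, was at 267 and 1271 CPM against 7.78 and 11.7 CPM. NGEF, a guanine nucleotide exchange factor, was at 119 and 147 CPM, RIMS3, a protein of vesicle release, at 71.1 and 82.4 CPM, and GNG2, a G protein gamma subunit, at 475 and 470 CPM. PDLIM4, an actin-binding LIM protein, was at 780 and 643 CPM, and FAAH, which degrades endocannabinoids, at 107 and 67.7 CPM. The transcription factors OSR1 and ETV4 were at 50.8 and 53.5 CPM and at 99.1 and 214 CPM. ROGDI and TMEM150C were at 94.0 and 121 CPM and at 61.0 and 156 CPM. LOC114116813, a long non-coding RNA in the RefSeq annotation of ARS-UI_Ramb_v3.0, was at 183 and 249 CPM, and LOC101104808 and LOC101111664, both protein-coding there, were at 470 and 456 CPM and at 35.6 and 43.1 CPM. Between libraries, DIRAS3, TMEM150C and ETV4 were at least 2-fold higher in curly cells, and MIA, PCP4 and CHI3L1, besides ACTG2, at least 2-fold lower. The other leading genes lay within 2-fold. Of all 2891 genes, 7.33% were this much higher and 2.53% this much lower. The ranking took the smaller ratio of the 2 libraries, which favours genes high in both.

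Of the secreted signals on the list, 15 of 55 in the table reached 100 UMIs, and 7 of them were at least 2-fold above KRT5+ ACTG2-low cells in both libraries, beside 14.7% of all genes. CXCL14, a chemokine of epithelium and glands, was at 1883 CPM (1749 to 2023) in the straight and 3221 CPM (3149 to 3295) in the curly cells, and at 54.8 and 101 CPM in ACTA2+ cells. KRT5+ ACTG2-low cells had 2165 and 935 CPM, so CXCL14 was 0.870-fold and 3.44-fold their level and did not separate the cells in the straight library. THBS1 (thrombospondin 1) was at 643 and 563 CPM against 103 and 111 CPM. PDGFB, a growth factor for mural cells, was at 58.4 and 54.8 CPM against 7.24 and 4.21 CPM. FGF1, a fibroblast growth factor, was at 27.9 and 47.0 CPM against 2.05 and 1.53 CPM.

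Within the population, the contractile share varied from cell to cell. Without ACTG2 and ACTA2, contractile genes took between 1.26% and 15.9% of the UMIs of a straight cell, with a median of 10.6%, and between 0.378% and 14.4% of a curly cell, with a median of 7.20%. The highest KRT5+ ACTG2-low cell had 5.12% in the straight and 6.90% in the curly library, which 41 of 44 straight and 131 of 243 curly ACTG2+ KRT5+ cells exceeded. The highest ACTA2+ cell, at 7.74% and 11.02%, was exceeded by 36 of 44 and 17 of 243. The 8 straight cells with ACTG2 but little KRT5 ranged from 0.962% to 10.8%, and the 19 curly ones had a median of 10.1%, above that of curly ACTG2+ KRT5+ cells. The straight cells thus separated more fully from KRT5+ ACTG2-low and ACTA2+ cells, although the curly sets hold more cells from which the highest was taken. KRT14, KRT15 and KRT17 together took a median of 0.843% of the UMIs in straight and 1.07% in curly cells, with 1.96% and 1.98% in KRT5+ ACTG2-low and 0.0734% and 0.0902% in ACTA2+ cells.

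**Figure D4:**
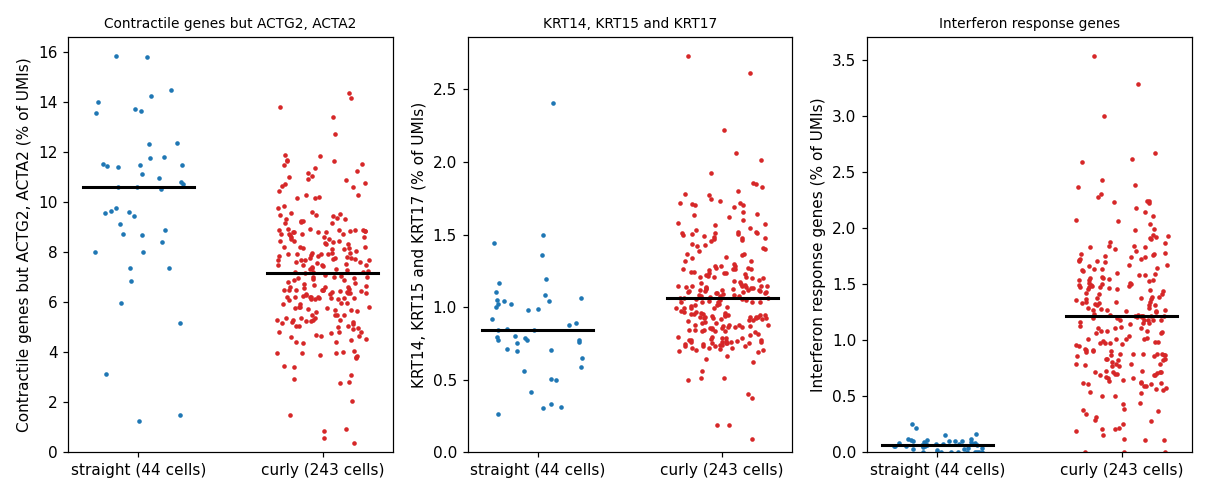
Share of UMIs (%) per ACTG2+ KRT5+ cell, with 1 point per cell and a bar at the median, for contractile genes without ACTG2 and ACTA2 (left), KRT14, KRT15 and KRT17 (middle) and interferon response genes (right). The contractile medians were 10.6% in straight and 7.20% in curly cells, and the interferon medians 0.0692% and 1.21%.

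Contractile genes moved together across the cells, and the keratins differed in how they went with ACTG2. Among cells thinned to 3000 UMIs, the Pearson correlation of log UMIs of ACTG2 and TAGLN was 0.84 over 23 straight and 0.74 over 193 curly cells. It was 0.77 and 0.66 for ACTG2 and TPM2, 0.73 and 0.59 for ACTG2 and ACTA2, and 0.07 and 0.02 for ACTG2 and KRT5. For ACTG2 and KRT17 it was 0.47 and 0.26, and for ACTG2 and KRT14 -0.44 and -0.07. The cells of a library share the pool, the preparation and free RNA, and both limits of the rule act on ACTG2 and KRT5, so these values describe the cells only. FOS and JUNB, immediate early genes, correlated at 0.65 and 0.68.

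Genes with the widest spread between cells were of several kinds. After thinning, the variance over the mean was 9.07 in straight and 15.6 in curly cells for MGP, an inhibitor of calcification, 7.64 and 7.79 for S100A9, and 6.88 and 14.0 for FOS. For CALD1 it was 7.17 and 6.97, for TAGLN 6.23 and 9.25, for S100A2, an epithelial calcium-binding protein, 4.73 and 12.4, and for FTH1 (ferritin heavy chain) 4.77 and 7.20. It was 19.48 and 11.98 for ACTG2, on which the cells were chosen. LOC101120093 had 60.5 and 11.2, with a UMI in 34.8% of the 23 straight and 31.1% of the 193 curly thinned cells, against 7.41% and 2.35% of PECAM1+ cells, so that its 3897 and 833 CPM came from part of the cells. LOC101117955, LOC101117184 and LOC101104661 ranged from 5.82 to 10.8.

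Between the libraries, ACTG2+ KRT5+ cells made up 0.682% of straight (44 of 6452, exact 95% interval 0.496% to 0.914%) and 3.20% of curly cells (243 of 7585, 2.82% to 3.63%). The share was larger in the curly library under every limit tried. A pool of follicles and whole skin was loaded for each library, and how far the mixing of suspensions sets this difference was not tested.

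Levels of most genes with at least 100 UMIs lay within 2-fold between the libraries. Of 2891 genes, 212 (7.33%) were at least 2-fold higher and 73 (2.53%) at least 2-fold lower in curly cells, and the median log2 ratio, curly to straight, was 0.09. These counts depend on the minimum, which is a sum over both libraries to which curly cells give most UMIs. With a minimum of 50 UMIs 433 genes were higher and 140 lower, with 1 UMI 1682 were higher and 1801 lower, and by the mean of per-cell CP10K 409 were higher and 138 lower. The contractile list lay lower in curly cells, where 24 of 30 genes were below and 6 above the straight level, with a median log2 ratio of -0.43. Of all 2891 genes, 1239 were below and 1652 above. Only ACTA1 and PDLIM3 were lower by at least 2-fold. The basal keratinocyte list was even at 0.01, and interferon response genes took a larger share of the UMIs in curly cells.

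**Figure D5:**
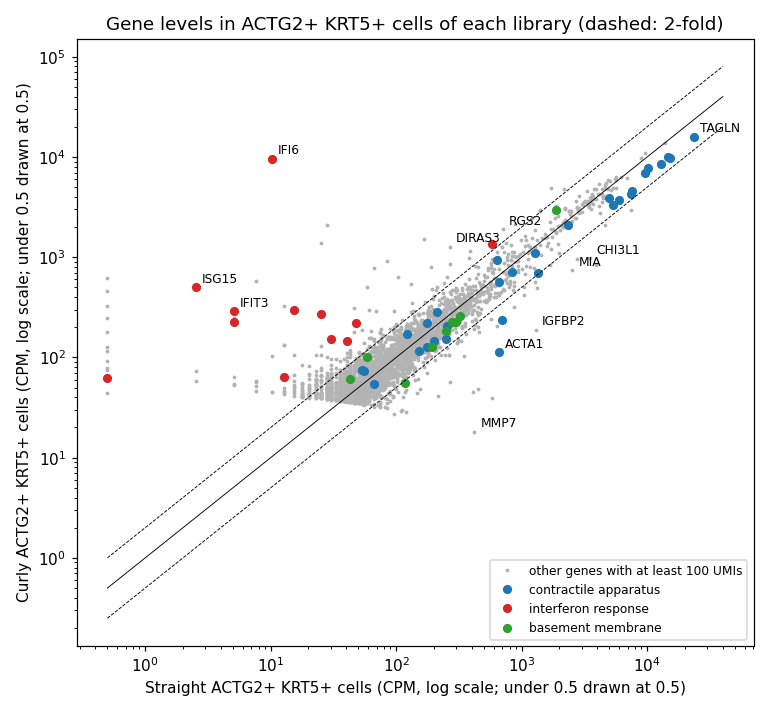
Level of each gene with at least 100 UMIs in curly against straight ACTG2+ KRT5+ cells (CPM, log scales, values under 0.5 drawn at 0.5), with the contractile (blue), interferon response (red) and basement membrane (green) lists in colour, a solid line at equal levels and dashed lines at 2-fold. IFI6, the highest red point, is at 10.2 CPM on the straight and 9546 CPM on the curly axis. Below the solid line lie 24 of 30 blue points, beside 1239 of all 2891 genes.

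ACTG2 itself was 27873 CPM in the straight and 10984 CPM in the curly cells, a log2 ratio of -1.34 that the rule leaves free above its limit. ACTA1 had a log2 ratio of -2.55 (-2.81 to -2.30) and PDLIM3, an actin-associated LIM protein, of -1.54 (-1.75 to -1.33), from 696 and 239 CPM. FLNA (filamin A), an actin cross-linker, had -0.95, and TPM1, MYLK, CNN1, TPM2, TAGLN and ACTA2 ranged from -0.79 to -0.55. MYH11, at -0.16 (-0.26 to -0.05), was nearly level, and PPP1R12A, at 0.57 (0.38 to 0.77), was higher in curly cells. ACTB, the cytoplasmic beta actin, named after its values were seen, was also lower, at 7424 against 2949 CPM, while ACTG1, the cytoplasmic gamma actin, was at 2752 and 3094 CPM. For the same 30 genes the median log2 ratio was 0.18 in KRT5+ ACTG2-low cells and 0.62 in ACTA2+ cells, where all 2891 genes had -0.15 and -0.17. The straight ACTG2+ KRT5+ cells were fewer than the curly ones and had a lower median of UMIs. The part of this in the contractile difference was not tested beyond the alternatives given at the end.

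KRT14 had a log2 ratio of 1.15 (1.05 to 1.25), and of the 16 measured basal keratinocyte genes it alone was at least 2-fold higher in curly cells, beside 7.33% of all genes. KRT17 was at -0.18 (-0.24 to -0.12), KRT15 at 0.44 (0.16 to 0.75) and KRT8 at 0.14 (-0.01 to 0.31), whose interval includes equal levels. In KRT5+ ACTG2-low cells KRT14 was also higher in the curly library (10926 and 14956 CPM). Keratins of other epithelial cells were higher as well, where 1652 of all 2891 genes were above and 1239 below the straight level. All 5 measured genes of inner root sheath and hair shaft were above the straight level, 2 of them, KRT25 (78.8 and 162 CPM) and KRT27 (12.7 and 62.5 CPM), by at least 2-fold, and the summed list took 0.0292% and 0.0534% of UMIs. All 4 measured suprabasal genes were higher too, KRTDAP (96.5 and 290 CPM) and SBSN (66.1 and 147 CPM) by at least 2-fold, and that list took 0.0457% and 0.0997%. In KRT5+ ACTG2-low cells these lists took 0.122% and 0.351%, and 0.714% and 0.838%. Their part in the KRT14 difference was not tested. The basement membrane list was slightly lower, with a median of -0.31. Of its 9 genes 6 were below, beside 1239 of all 2891 genes, and HSPG2 (-1.07) passed 2-fold. SPARC, a matricellular protein, was higher at 0.66 (0.55 to 0.78).

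Interferon response genes made up a larger share of the UMIs in curly cells. All 21 genes of this list in the table together took 0.0798% of UMIs in straight and 1.32% in curly ACTG2+ KRT5+ cells. Of these genes 12 reached 100 UMIs and 9 did not, and some of the 12, such as MX2 with no straight UMI, reached it only through curly cells, so no count over them is given. IFI6, an interferon-induced membrane protein, was at 10.2 CPM (2.77 to 26.0) in the straight and 9546 CPM (9421 to 9673) in the curly cells. At 3000 UMIs per cell it had a UMI in 0% of 23 straight and 98.4% of 193 curly cells, and in 20.4% and 98.8% of PECAM1+ cells. Without thinning it had a UMI in 9.09% and 95.5% of the cells, and in 28.5% and 99.3% of PECAM1+ cells. ISG15, a ubiquitin-like modifier, had 1 UMI in straight cells and 1158 UMIs in curly cells (2.54 and 499 CPM), a log2 ratio of 7.03 with a counting interval of 5.14 to 12.92. MX1, an antiviral GTPase, was at 25.4 and 270 CPM, and B2M, the light chain of class I MHC, at 582 and 1369.7 CPM.

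The other cells of the curly library showed the same direction. IFI6 was at 13.9 and 5811 CPM in KRT5+ ACTG2-low cells, at 520 and 13108 CPM in ACTA2+ cells and at 112 and 11209.8 CPM in PECAM1+ cells. The whole list took 0.0559% and 0.744% of UMIs in KRT5+ ACTG2-low cells, 0.169% and 1.74% in ACTA2+ cells and 0.452% and 1.99% in PECAM1+ cells. IFIT2 and IFIT3, interferon-induced RNA-binding proteins, differed in level between cell sets of the curly library, at 297 and 288 CPM in ACTG2+ KRT5+ cells against 13.2 and 13.7 CPM in KRT5+ ACTG2-low and 34.7 and 115 CPM in ACTA2+ cells.

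Genes of the immediate early and stress response that tissue dissociation can switch on were also higher in curly cells. Of 22 measured genes of that list, 19 were above and 3 below the straight level, beside 1652 and 1239 of all 2891 genes. The median log2 ratio of the list was 0.55. Upward, 4 of its genes passed 2-fold, namely FOS, EGR2, IER2 and BTG2, beside 7.33% of all genes. FOS was at 887 and 2137 CPM, with a log2 ratio of 1.27 (1.11 to 1.43). KLF6 passed 2-fold downward, as did 2.53% of all genes, at 226 and 107 CPM. In KRT5+ ACTG2-low cells the same list had a median of -0.22 and FOS was at 2146 and 1679 CPM, and in ACTA2+ cells the median was 0.19. Whether handling of the pools differed was not tested.

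Secreted signals and regulators differed gene by gene. IGFBP5, an IGF-binding protein, was at 188 CPM (148 to 236) in the straight and 800 CPM (764 to 837) in the curly cells, a log2 ratio of 2.08, while KRT5+ ACTG2-low cells had 35.0 and 33.3 CPM. IGFBP2, of the same family, went the other way, from 1293 CPM (1183 to 1411) to 189 CPM (172 to 207), a log2 ratio of -2.78, against 12.7 and 26.8 CPM in KRT5+ ACTG2-low cells. PDGFA, a growth factor for fibroblasts, was at 96.5 and 201 CPM, and NTF3 (neurotrophin 3) at 38.1 and 95.7 CPM. In all 5 of 15 measured secreted signals were at least 2-fold higher and 2, IGFBP2 and POSTN, at least 2-fold lower, beside 7.33% and 2.53% of all genes. Of these 5, IL6 rested on 149 UMIs in 3 of 243 curly cells. Among the 15 measured genes, 1 had no UMI in a library. Curly cells give most UMIs behind the minimum, so genes high in them enter more easily, and the counts only describe. RGS2 had a log2 ratio of 1.43 (1.26 to 1.62), CXCL14 of 0.77 (0.67 to 0.89) and FHL2 of -1.63 (-1.85 to -1.40). VIM was 2.05-fold higher in curly cells.

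The genes furthest lower in curly cells among those with at least 100 CPM in the higher library were led by MMP7 (matrilysin), a protease of glandular epithelium, at 419 CPM (358 to 488) in the straight and 18.1 CPM (13.1 to 24.5) in the curly cells. It had a UMI in 45.5% of straight and 8.64% of curly cells, and in 56.5% and 3.63% at 3000 UMIs per cell, with at most 0.926% of PECAM1+ cells in any of these. SPP1 (osteopontin) was at 452 and 48.3 CPM, and POSTN (periostin) at 216 and 41.4 CPM, though both were higher in KRT5+ ACTG2-low cells of the curly library (256 and 338 CPM) than in curly ACTG2+ KRT5+ cells. FMOD (fibromodulin) was at 109 and 29.3 CPM, MYBPC2, a myosin-binding protein of fast skeletal muscle, at 112 and 29.8 CPM, and MSRB1, a methionine sulfoxide reductase, at 119 and 28.5 CPM. MMP7, IGFBP2 and MYBPC2 belonged to the straight ACTG2+ KRT5+ cells more than to KRT5+ ACTG2-low cells of that library, which had 19.6, 12.7 and 1.49 CPM. C11H17orf58 was at 267 and 56.5 CPM, LOC105604171 at 582 and 39.2 CPM, and LOC101112555 at 407 and 44.9 CPM. Leading genes were on this side too, with log2 ratios of -1.84 for CHI3L1, -1.78 for MIA and -1.53 for PCP4.

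Of the 12 genes furthest higher in curly cells, IFI6 and ISG15 are on the interferon response list. BST-2A (a sheep tetherin) had no straight UMI and 324 CPM in curly cells, which is at least 42.6-fold higher, but it has a close paralogue with which reads can be shared. RTP4 had 0 and 128 CPM, at least 16.7-fold higher. The other 8 carry locus symbols only. LOC101117112, LOC101113168, LOC105602911, LOC114117804 and LOC114117888 had no straight UMI and 621, 458, 245, 180 and 116 CPM in curly cells. LOC114110140, LOC114110138 and LOC114109518 were at 27.9 and 2106 CPM, 7.62 and 579 CPM, and 25.4 and 1384 CPM. All 8 were also higher in the curly than in the straight KRT5+ ACTG2-low cells. DIRAS3, a leading gene of the population, had a log2 ratio of 2.25 (1.97 to 2.55) in ACTG2+ KRT5+ cells, beside 7.78 and 11.7 CPM in KRT5+ ACTG2-low cells.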

How the data were processed

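Skin of Hu sheep lambs with straight or curly wool was measured by single-cell RNA-seq, with 1 pooled library per wool type, and groups were taken from the phenotype labels, where curly wool is given as waved wool. Alignment by the authors was to Oar_rambouillet_v1.0 with Cell Ranger (3.0.2 in the submitters' processing notes, another version in the methods of the paper), and their filtered table has 18161 genes and 14037 cells. As the values themselves show, the authors deposited natural log values of CP10K plus 1. UMI counts were calculated back from them, and 100% of 28552149 values above 0 were whole within 0.01. No mitochondrial gene is in the table. A supplement of the paper names a minimum of 1750 genes per cell, which 3964 straight and 4321 curly cells reach. No cell was removed as a doublet, and the highest 6% of Scrublet scores (scanpy 1.11.5) were left out as an alternative.

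The rule for the cells, the 21 gene lists and the comparison sets were chosen with earlier results of these data known. PECAM1+ cells (at least 5 CP10K) were added after the data had been seen, and cells with KRT8 and KRT18 of at least 10 CP10K, 4 straight and 7 curly, were too few to compare. CPM were calculated from UMIs summed per set and library. Their intervals are exact 95% Poisson intervals, exact Clopper-Pearson intervals for shares and, for log2 ratios, intervals from the binomial split of the sums. Ratios that rank or count genes had 0.5 UMI added, and a gene needed 100 UMIs. Shares of cells with a UMI were compared after thinning to 3000 UMIs, with at most 400 cells per comparison set. The calculation of fold changes was tested on simulated data.

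Named genes are the markers of the population, members of the lists, the 25 leading genes, the 12 highest and 12 lowest log2 ratios with at least 100 CPM in a library, and the 12 most variable genes with a thinned mean of at least 0.5. ACTB and ACTG1 were added after their values were seen. KRT14 and KRT15 are listed in the table as LOC101118459 and LOC101117682 and were named from RefSeq (ARS-UI_Ramb_v3.0), as were 305 of 3912 locus symbols, and no position was taken from that build. Calculations used scipy 1.17.1, numpy 2.4.6 and pandas 2.3.3 under Python 3.11.15, and figures matplotlib 3.10.9.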

Additional observations from a re-analysis of the deposited data

How the results depend on the processing

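With 1 library per wool type no replicate could be left out. No paired analysis was possible because each group has 1 library and the labels give no replicate numbers. The straight share of ACTG2+ KRT5+ cells was 1.13% with ACTG2 of at least 10 CP10K and 0.462% among cells with at least 2000 UMIs, a limit set after the data had been seen. The curly share was 4.01% with ACTG2 of at least 10 CP10K, 2.56% with at least 40 CP10K and 4.28% among cells that reach the number of genes named in the supplement. Genes at least 2-fold higher in curly cells numbered 1682 with a minimum of 1 UMI, 433 with 50 UMIs and 409 by the mean of per-cell CP10K, and genes at least 2-fold lower 1801, 140 and 138. With sums of 0 at 3 counts, 233 were higher and 73 lower. Genes at least 4-fold above the comparison sets numbered 117 with a minimum of 1 UMI and 209 under the minimum number of genes per cell, where the 8 and 5 ACTA2+ cells were too few and only KRT5+ ACTG2-low cells were compared. Over 66 named genes and 12 alternatives, 780 of 792 log2 ratios kept their sign, and 60 moved by more than their counting interval. The minima of 50 UMIs and 1 UMI change only which genes are counted, so the ratios under them could not move. The signs that changed belonged to GNG2, OSR1, SEMA3G, TAC1, KRT17, LOC101104808, NGEF, RIMS3 and S100A9, which lay between -0.41 and 0.29. The median log2 ratio of the contractile list ranged from -0.52 to -0.33, that of the basement membrane list from -0.40 to -0.17, that of the dissociation list from 0.26 to 0.60, and that of the basal keratinocyte list from -0.11 to 0.03, beside -0.11 to 0.11 for all genes. The 44 straight cells limit the precision on that side, and the spread between lambs is unknown.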
